A study of Mus musculus with 20 samples.

Results

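The MHC class II presentation genes were followed in the kidneys of mice given IgA1-IgG immune complexes with and without sparsentan. The 7 genes are Ciita, Cd74, H2-Aa, H2-Ab1, H2-Eb1, H2-DMa and H2-DMb1. They were chosen by name, as the rows of the count tables whose symbol matched, and all 7 were found among the 15780 genes listed. All 7 passed the filter on low counts that 13990 genes passed.

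MHC class II molecules are dimers of an alpha and a beta chain that hold peptides from ingested material on the surface of antigen-presenting cells for recognition by CD4+ T cells. The chains assemble on the invariant chain Cd74, which fills the groove until its last fragment, CLIP, is exchanged for a peptide with the help of the H2-DM dimer. Ciita is the coactivator that switches the whole set on. It does not bind DNA itself but docks on a complex of RFX, CREB and NF-Y proteins at the X and Y boxes of class II promoters. In the kidney, class II genes are best known from resident macrophages and dendritic cells, and interferon-gamma can induce them in tubular and endothelial cells.

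The 20 mice were female NCr nude mice homozygous for the nude mutation, bought at 7 weeks of age, with 5 mice in each of 4 groups. EIC mice received 6 tail-vein injections, every other day, of engineered immune complexes made of 0.2 mg human galactose-deficient IgA1 (Gd-IgA1) and 0.1 mg recombinant human IgG autoantibody against it, and were gavaged daily with vehicle for 11 days. EIC + S60 and EIC + S120 mice received the same complexes and daily sparsentan, a blocker of endothelin and angiotensin II receptors, at 60 and 120 mg/kg. Control mice received vehicle and no complexes, with tail-vein injections of PBS instead per a figure legend of the paper. All kidneys were taken on day 12. Nude mice lack a thymus and are deficient in T cells, the cells that read class II molecules, and the antibodies of the complexes are human proteins. Each library came from the kidney of 1 mouse, named here by its group and mouse number. In such bulk RNA, more cells of a type and more RNA per cell cannot be told apart. The Control mice carry a number series of their own, and neither labels nor methods state the order in which mice were processed.

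The libraries held 12662345 to 38651781 counts, with Control 651 and Control 652 the deepest. Values are counts per 1000000 (CPM) after scaling of the library sizes. Groups were compared by edgeR's quasi-likelihood test over all 13990 genes, two-sided, and a gene was called when its Benjamini-Hochberg adjusted p was under 0.05. Log2 fold changes (LFCs) are given with their SE. The summed CPM of 10 kidney markers was 11200 to 14700 in EIC, 11700 to 14800 in EIC + S60, 11700 to 14700 in EIC + S120 and 12900 to 13900 in Control mice. Control 653 stood apart, with a summed CPM of 90.0 for 4 adipocyte markers and 1250 CPM of the collecting duct water channel Aqp2. In the other 19 mice the adipocyte sum was at most 9.12 CPM.

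Of the 7 genes, 5 lie together in the MHC on chromosome 17 (GENCODE vM21 annotation on GRCm38). From the centromeric side they are H2-DMa (chr17:34119541-34139101, plus strand), H2-DMb1 (chr17:34153072-34160230, plus strand), H2-Ab1 (chr17:34257689-34269419, plus strand), H2-Aa (chr17:34282744-34287823, minus strand) and H2-Eb1 (chr17:34305867-34316674, plus strand). Ciita lies on chromosome 16 (chr16:10480059-10528418, plus strand).

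The promoters are shown because Ciita acts through the X and Y boxes of class II promoters. RefSeq sequences on GRCm38.p6, of 250 bases before to 50 after the start site, were matched for 4 of the 7 genes, H2-DMa with 2 start sites. In 3 of them the letters GNAAC, the core of the X box, were followed after 20 to 45 bases by ATTGG, the core of the Y box. This search, on both strands, was chosen after the sequences were seen. The capitals mark those 2 cores.
H2-Aa, chr17:34287774-34288073, minus strand: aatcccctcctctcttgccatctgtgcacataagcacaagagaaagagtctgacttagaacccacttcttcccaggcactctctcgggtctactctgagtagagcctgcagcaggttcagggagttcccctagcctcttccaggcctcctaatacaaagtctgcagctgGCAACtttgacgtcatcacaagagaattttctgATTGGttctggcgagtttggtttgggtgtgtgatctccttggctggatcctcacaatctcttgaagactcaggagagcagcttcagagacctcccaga
H2-Eb1, chr17:34305617-34305916, plus strand: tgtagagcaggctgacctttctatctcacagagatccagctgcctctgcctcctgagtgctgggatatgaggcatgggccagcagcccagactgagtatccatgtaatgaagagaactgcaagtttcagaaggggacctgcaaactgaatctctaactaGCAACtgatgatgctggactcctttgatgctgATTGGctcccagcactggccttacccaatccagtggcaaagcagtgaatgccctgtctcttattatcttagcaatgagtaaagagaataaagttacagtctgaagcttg
H2-DMb1, chr17:34152941-34153240, plus strand: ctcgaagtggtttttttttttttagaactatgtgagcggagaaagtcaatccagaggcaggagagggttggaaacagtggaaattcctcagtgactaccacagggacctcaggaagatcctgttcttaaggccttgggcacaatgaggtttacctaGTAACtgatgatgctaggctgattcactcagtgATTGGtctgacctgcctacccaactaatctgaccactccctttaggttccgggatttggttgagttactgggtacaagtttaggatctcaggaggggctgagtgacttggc

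The X and Y cores were separated by 28 bases in H2-Aa, 27 in H2-Eb1 and 28 in H2-DMb1. They lay close to the start site in all 3, with the Y core beginning 48, 59 and 61 bases before it. Of 32851 promoters of the same length, 4.13% held the same arrangement. H2-DMb1 and H2-Eb1 also shared the run AACTGATGATGCT across the X box, which 3 of the 32851 promoters held, those 2 and that of Slc39a10. H2-Aa held the X2 core TGACG on both strands, an element of 20.8% of promoters. The longer Y box CTGATTGG stood in H2-Aa and H2-Eb1 and in 4.1% of promoters. CCNNGNAAC, a stricter X core present in 15.1%, stood in H2-DMb1 and in 1 of the 2 H2-DMa windows. A CCAAT on either strand, present in 37.4%, stood in H2-Aa, H2-Eb1, H2-DMb1 and the other H2-DMa window. A match is a description of the letters and not of binding, and the absence of one concerns these windows only.

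Levels differed widely between the members. Per kilobase of the main annotated transcript, Cd74 averaged 74.3 CPM per kb over the 20 mice, H2-Aa 26.6, H2-Ab1 19.3, H2-DMb1 9.64, H2-DMa 3.96, H2-Eb1 0.916 and Ciita 0.323. The gene of the invariant chain Cd74 lies outside the MHC (chr18:60803848-60812652, plus strand). The invariant chain was the most abundant of the 7 and the coactivator the least. With all annotated exons as the length, Cd74 stayed first at 62.4 CPM per kb and Ciita last at 0.203, but H2-Aa at 7.89 stood below H2-Ab1 at 9.13 and H2-DMb1 at 8.05, so the order of these 3 depended on the length used. Counts were 906 to 3852 per library for Cd74, but 14 to 109 for Ciita and 11 to 55 for H2-Eb1, and the values of these last members are the least precise.

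In EIC vs. Control, all 7 members had a positive LFC, and none was called by edgeR's test, against 2.97% of all genes tested (416 of 13990). The adjusted p was 0.064 for Ciita, 0.0762 for H2-Eb1 and 0.0932 for Cd74. At an unadjusted p under 0.05 there were 6 of the 7 members, against 16.8% of all genes. DESeq2 called 3 members, Ciita, Cd74 and H2-Eb1, against 4.56% of all genes (689 of 15125), and limma-voom called 0, against 2.94%. Without EIC 67 the 7 LFCs in edgeR's fit were 0.134 to 0.908. The median LFC of the 7 was 0.80, and that of all genes was -0.01. The values of single mice show where the differences lay.

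Ciita, the coactivator, was at 1.83, 1.39, 6.20, 1.87 and 4.57 CPM in EIC mice 65, 66, 67, 68 and 69, against 1.38, 0.828, 1.87, 1.16 and 1.32 CPM in Control mice 651 to 655. EIC 67 and EIC 69 were far above every Control mouse, while the other EIC mice were at or near the upper Control values. The LFC was 1.30 ± 0.35 (SE, n = 5 each; edgeR adjusted p = 0.064). DESeq2 gave an adjusted p of 0.0229. Without EIC 66 the LFC was 1.496 and was called (edgeR adjusted p = 0.0261), as it was without EIC 65 (adjusted p = 0.0472), where 3.33% and 2.69% of all genes were called, whereas without EIC 67 it was 0.91 (adjusted p = 0.211).

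Cd74, the invariant chain, was at 103, 81.7, 219, 98.1 and 185 CPM in EIC mice 65 to 69, against 73.2, 78.4, 57.6, 93.1 and 70.1 CPM in Control mice 651 to 655. All EIC mice but EIC 66 were above every Control mouse, and EIC 67 and EIC 69 led again. The mean was 137 CPM in EIC mice and 74.5 CPM in Control mice, with SDs of 44.3% and 17.3% of the mean (n = 5 each). The difference was 1.84-fold (LFC 0.88 ± 0.27, SE; edgeR adjusted p = 0.0932, DESeq2 adjusted p = 0.0378). Leaving out single mice gave edgeR adjusted p from 0.0446, without EIC 66, to 0.235, without EIC 67.

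The alpha chain H2-Aa and the beta chain H2-Ab1 form the I-A molecule. H2-Aa was at 24.9, 24.2, 48.4, 25.7 and 55.2 CPM in EIC mice 65 to 69, against 28.6, 22.0, 13.1, 27.4 and 19.5 CPM in Control mice 651 to 655. H2-Ab1 was at 20.4, 16.1, 50.7, 20.5 and 44.0 CPM in the same EIC mice, against 20.9, 17.6, 11.9, 22.0 and 14.5 CPM in the Control mice. For both chains EIC 67 and EIC 69 exceeded every Control mouse, and EIC 65, 66 and 68 lay within the Control range. The LFC was 0.68 ± 0.27 for H2-Aa (SE; edgeR adjusted p = 0.201) and 0.80 ± 0.30 for H2-Ab1 (adjusted p = 0.176).

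H2-Eb1, the beta chain of I-E, was the only one of the 7 members whose groups did not overlap. Of all 13990 genes tested, 1.98% had every EIC mouse above every Control mouse and 2.03% had every EIC mouse below. It was at 1.74, 1.57, 3.13, 1.70 and 2.10 CPM in EIC mice 65 to 69, against 1.16, 1.33, 1.06, 1.09 and 0.851 CPM in Control mice 651 to 655. All 5 EIC mice were above every Control mouse, although each value rests on a small count. Of the other class II chains, H2-Ea, H2-Ea-ps and H2-Eb2 were not analysed here, so H2-Eb1 stands alone for I-E. The LFC was 0.87 ± 0.24 (SE; edgeR adjusted p = 0.0762, DESeq2 adjusted p = 0.0443). A two-sided exact permutation test of log2 CPM gave p = 0.00794, the smallest that 5 against 5 mice allow, and 0.278 after adjustment over the 35 such tests of members.

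H2-DMa and H2-DMb1 are the alpha and beta chains of the H2-DM peptide exchanger. H2-DMa was at 5.75, 5.75, 15.3, 6.37 and 10.3 CPM in EIC mice 65 to 69, against 5.07, 4.32, 5.16, 7.21 and 5.11 CPM in Control mice 651 to 655. H2-DMb1 was at 10.96, 16.2, 20.6, 16.3 and 14.5 CPM in the EIC mice, against 15.7, 14.1, 9.52, 13.3 and 12.9 CPM in the Control mice. H2-DMa showed the same 2 high EIC mice as the chains it serves, while for H2-DMb1 EIC 66, 67 and 68 were above every Control mouse, EIC 69 was not, and EIC 65 was among the lowest of all 20 mice. The LFC was 0.71 ± 0.23 for H2-DMa (SE; edgeR adjusted p = 0.122) and 0.25 ± 0.15 for H2-DMb1 (adjusted p = 0.417). Without EIC 67 these LFCs were 0.402 and 0.134. The ratio of H2-DMa to H2-DMb1 averaged 0.522 in EIC mice and 0.409 in Control mice, a difference that an exact permutation test did not separate from the spread between mice (p = 0.246). H2-DMb1 and its neighbour H2-DMb2 are close paralogs, and reads could have been divided between them or lost.

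**Figure D1:**
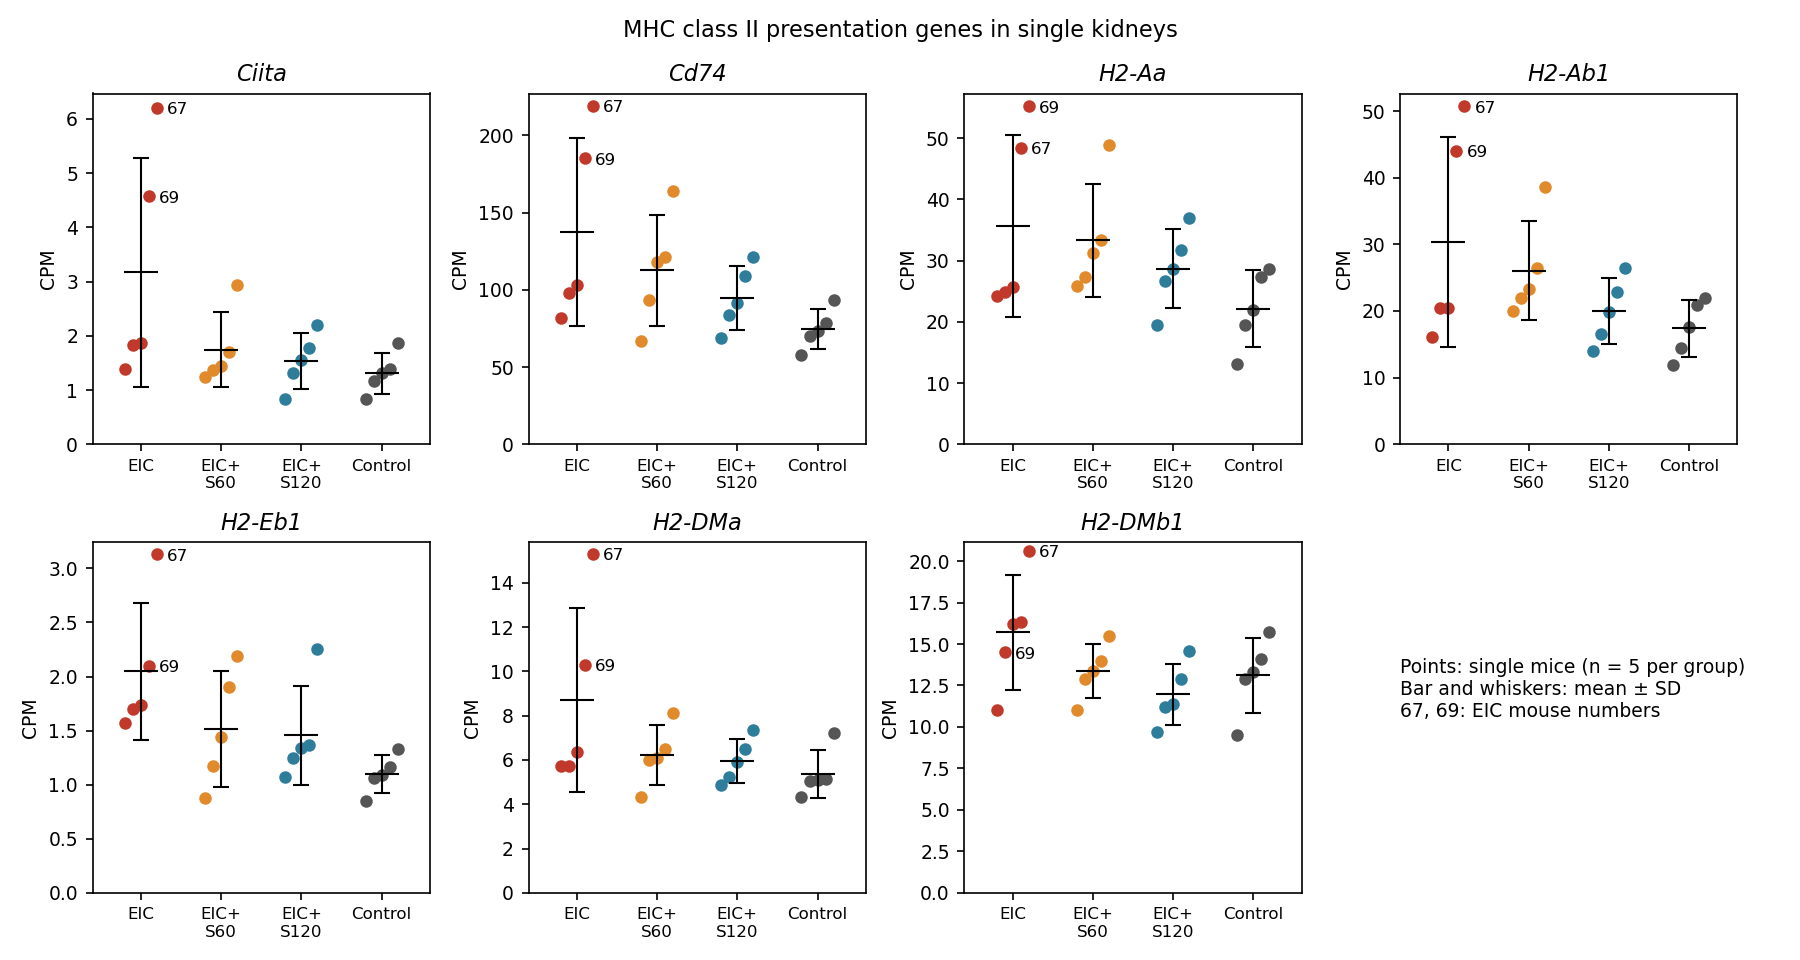
CPM of the 7 members (y axis of each panel, from 0) in single mice of the EIC, EIC + S60, EIC + S120 and Control groups, with mean and SD bars over 5 mice. EIC 67 and EIC 69 are numbered and stand above the other EIC mice in all panels except that of H2-DMb1, where EIC 69 lies at 14.5 CPM among them.

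EIC 67 ranked first of the 20 mice for 6 members and was at 48.4 CPM, at rank 3, for H2-Aa. EIC 69 had a median rank of 2 over the members and EIC + S60 72 a median rank of 3. Control 653, the mouse with adipocyte markers, had a median rank of 20 and the lowest level of Cd74, H2-Aa, H2-Ab1 and H2-DMb1. Without Control 653 the LFCs were 0.15 to 1.45 in EIC vs. Control, and none was called (lowest edgeR adjusted p = 0.0583). The part of adipose tissue in its values was not tested.

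In EIC + S60 vs. EIC, Ciita was at 1.70, 2.94, 1.45, 1.37 and 1.24 CPM in EIC + S60 mice 71 to 75, and in EIC + S120 vs. EIC it was at 1.78, 0.834, 2.20, 1.32 and 1.55 CPM in EIC + S120 mice 77 to 81. No mouse of either sparsentan group reached the 4.57 and 6.20 CPM of EIC 69 and EIC 67, but all lay within or below the range of the other EIC mice except EIC + S60 72 and EIC + S120 79. The LFC was -0.87 ± 0.35 with 60 mg/kg (SE; edgeR adjusted p = 0.765) and -1.04 ± 0.35 with 120 mg/kg (adjusted p = 0.437). Neither was called.

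Cd74 was at 118, 164, 93.1, 121.3 and 67.1 CPM in EIC + S60 mice and at 109, 91.3, 120.5, 68.7 and 83.8 CPM in EIC + S120 mice. These values overlapped those of EIC mice 65, 66 and 68, and EIC + S60 72 came near EIC 69. The LFC against EIC was -0.29 ± 0.27 with 60 mg/kg (SE; edgeR adjusted p = 0.904) and -0.54 ± 0.27 with 120 mg/kg (adjusted p = 0.61).

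H2-Aa was at 31.3, 48.9, 25.8, 33.3 and 27.3 CPM in EIC + S60 mice and at 31.8, 28.6, 37.0, 19.5 and 26.6 CPM in EIC + S120 mice. All 5 EIC + S60 mice were above the EIC median of 25.7 CPM, although the EIC mean of 35.7 CPM was above their mean of 33.3 CPM. The LFC against EIC was -0.10 ± 0.27 with 60 mg/kg (SE; edgeR adjusted p = 0.976), and it was 0.11 without EIC 69. With 120 mg/kg it was -0.31 ± 0.27 (adjusted p = 0.783). H2-Ab1 ranged over 19.95 to 38.6 CPM in EIC + S60 mice and 14.0 to 26.5 CPM in EIC + S120 mice, with LFCs of -0.22 ± 0.30 and -0.60 ± 0.30 (SE; edgeR adjusted p = 0.943 and 0.603).

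H2-Eb1 was at 1.44, 1.90, 0.872, 2.19 and 1.17 CPM in EIC + S60 mice and at 2.25, 1.37, 1.34, 1.07 and 1.25 CPM in EIC + S120 mice. Of these, 3 EIC + S60 mice and 4 EIC + S120 mice were below every EIC mouse, and the rest lay among them. The LFC against EIC was -0.44 ± 0.24 with 60 mg/kg (SE; edgeR adjusted p = 0.831) and -0.49 ± 0.24 with 120 mg/kg (adjusted p = 0.636). H2-DMa ranged over 4.32 to 8.14 CPM in EIC + S60 mice and 4.88 to 7.35 CPM in EIC + S120 mice (LFC -0.49 ± 0.23 and -0.54 ± 0.23, SE; edgeR adjusted p = 0.815 and 0.551). H2-DMb1 ranged over 11 to 15.5 CPM in EIC + S60 mice and 9.71 to 14.6 CPM in EIC + S120 mice (LFC -0.23 ± 0.15 and -0.39 ± 0.15; edgeR adjusted p = 0.845 and 0.466).

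All 7 LFCs were negative against EIC at both doses, and edgeR called none of them at either dose. Among all genes, edgeR called 0% with 60 mg/kg (0 of 13990) and 0.0572% with 120 mg/kg (8 of 13990). At an unadjusted p under 0.05 there was 1 member with 60 mg/kg, against 6.05% of all genes, and 3 members with 120 mg/kg, Ciita, H2-DMa and H2-DMb1, against 8.45% of all genes. DESeq2 also called 0 members at both doses, against 0.0318% of all genes with 60 mg/kg and 0.481% with 120 mg/kg, as did limma-voom, against 0% and 0.0643%. The 2 comparisons share the EIC mice, among them EIC 67 and EIC 69. Without EIC 67 the LFC of Ciita was -0.485 with 60 mg/kg and -0.656 with 120 mg/kg. With 60 mg/kg, H2-Aa and H2-Ab1 were then at 0.034 and 0.04, and the other members at -0.235 to -0.053. With 120 mg/kg the other 6 members were at -0.339 to -0.179, all still negative. None was called.

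**Figure D2:**
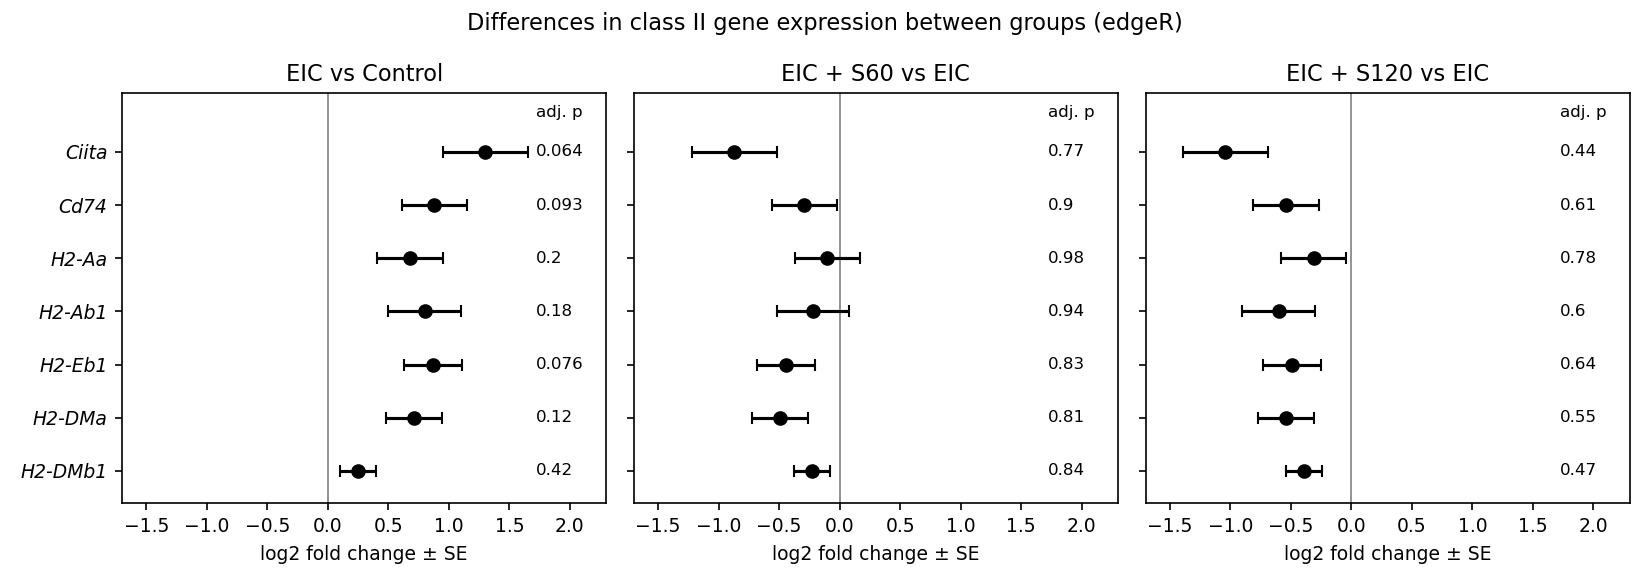
LFC (x axis, log2 scale, with SE) of each member in EIC vs. Control, EIC + S60 vs. EIC and EIC + S120 vs. EIC, with edgeR's adjusted p at the right of each panel. All points lie above 0 in EIC vs. Control and below 0 in both other panels, and no adjusted p is under 0.05, the lowest being 0.064 for Ciita in EIC vs. Control.

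The mice given sparsentan with the complexes were also set against Control. In EIC + S60 vs. Control the LFC was 0.60 ± 0.27 for Cd74 (SE; edgeR adjusted p = 0.367), 0.58 ± 0.27 for H2-Aa (adjusted p = 0.377) and 0.57 ± 0.30 for H2-Ab1 (adjusted p = 0.452). The other 4 members lay between 0.02 and 0.43. In EIC + S120 vs. Control the 7 LFCs ran from -0.14 for H2-DMb1 to 0.39 for H2-Eb1 (lowest edgeR adjusted p = 0.455), and in EIC + S120 vs. EIC + S60 from -0.38 for H2-Ab1 to -0.05 for H2-DMa and H2-Eb1 (lowest adjusted p = 0.83). No member was called in these comparisons by edgeR, DESeq2 or limma-voom, against 1.29%, 5.55% and 0.0643% of all genes called by edgeR, 2.45%, 7.97% and 0.624% by DESeq2 and 1.39%, 5.33% and 0.0572% by limma-voom. At an unadjusted p under 0.05 there were 2 members, Cd74 and H2-Aa, in EIC + S60 vs. Control and 0 in the other comparisons. The difference between the doses was thus not detectable for any member at n = 5, with an SE of 0.15 to 0.35 on the log2 scale.

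The spread between mice was numerically wider in EIC than in Control for all 7 members. The coefficient of variation of Ciita was 66.4% in EIC, 39.8% in EIC + S60, 33.1% in EIC + S120 and 28.9% in Control mice. For Cd74 it was 44.3%, 32.0%, 21.6% and 17.3% in the same order of groups. For the 7 members it ran from 22.2% to 66.4% in EIC mice and from 15.8% to 28.9% in Control mice. These spreads are given as a description and were not tested.

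The members varied together from mouse to mouse. After centring on the group means, the Pearson r of log2 CPM over the 20 mice was 0.94 for H2-Aa with H2-Ab1, 0.93 for Cd74 with H2-Ab1, 0.89 for Cd74 with H2-Aa and 0.87 for H2-DMa with H2-Ab1. For H2-DMb1, r ran from 0.19 with Ciita to 0.52 with H2-Aa. These values share the libraries and are descriptions.

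Ciita was set against each of the other 6 members, and H2-Aa against marker scores of 3 cell types, over all mice and after centring, 18 relations in all with 100000 permutations each. Over all 20 mice the highest Pearson r of Ciita was that with H2-DMa (Pearson r = 0.85, permutation p = 2e-05, adjusted p = 0.00018, and Spearman rho = 0.62, p = 0.00434, adjusted p = 0.0189). Without EIC 67 and EIC 69, the mice farthest from the median of Ciita, r was 0.56. Within groups r was 0.79 (permutation p = 0.00162, adjusted p = 0.00468) and rho 0.69 (p = 0.0063, adjusted p = 0.0189). For Cd74, H2-Aa, H2-Ab1 and H2-Eb1 the pooled r with Ciita was 0.65 to 0.79 (permutation test, adjusted p = 0.00054 to 0.005) and rho 0.46 to 0.64 (adjusted p = 0.0184 to 0.0684). Without the same mice r was 0.35 for H2-Eb1, 0.36 for H2-Aa, 0.43 for H2-Ab1 and 0.52 for Cd74, each lower than with EIC 67 and EIC 69, and no test was run on the remaining 18 mice. Within groups r was 0.46 for H2-Eb1 (permutation test, adjusted p = 0.0814) and 0.59 to 0.72 for the other 3 (adjusted p = 0.014 to 0.0417). Without EIC 66 and EIC 67, the mice farthest from the median of centred Ciita, these within-group r values were lower. They were 0.261 for H2-Eb1, 0.481 for H2-Aa, 0.537 for H2-Ab1, 0.568 for Cd74 and 0.655 for H2-DMa, and were not tested. The lowest r and rho were those with H2-DMb1 (r = 0.39, permutation p = 0.0911, adjusted p = 0.109, and rho = 0.18, p = 0.448, adjusted p = 0.538), for which r was -0.04 without EIC 67 and EIC 69. A test of the difference between these correlations was not run.

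H2-Aa followed the mean log2 CPM of the macrophage and monocyte markers, both over all mice (Pearson r = 0.81, permutation p = 1e-05, the smallest the permutations can give, adjusted p = 0.00018, and Spearman rho = 0.72, p = 0.00053, adjusted p = 0.00477) and within groups (r = 0.79, permutation p = 0.00028, adjusted p = 0.00126, and rho = 0.88, p = 4e-05, adjusted p = 0.00072). Without the 2 mice farthest from the median score, r was 0.73 over all mice and 0.83 within groups. For the dendritic cell markers r was 0.57 over all mice (permutation p = 0.0111, adjusted p = 0.0182, and rho = 0.60, p = 0.00614, adjusted p = 0.0189) and 0.52 within groups (permutation p = 0.0474, adjusted p = 0.0656, and rho = 0.49, p = 0.0584, adjusted p = 0.0809). Without the 2 mice farthest from the median of that score, r was 0.50 over all mice and 0.38 within groups. With the B cell markers r was -0.14 (permutation p = 0.561, adjusted p = 0.594, and rho = -0.07, p = 0.758, adjusted p = 0.803).

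**Figure D3:**
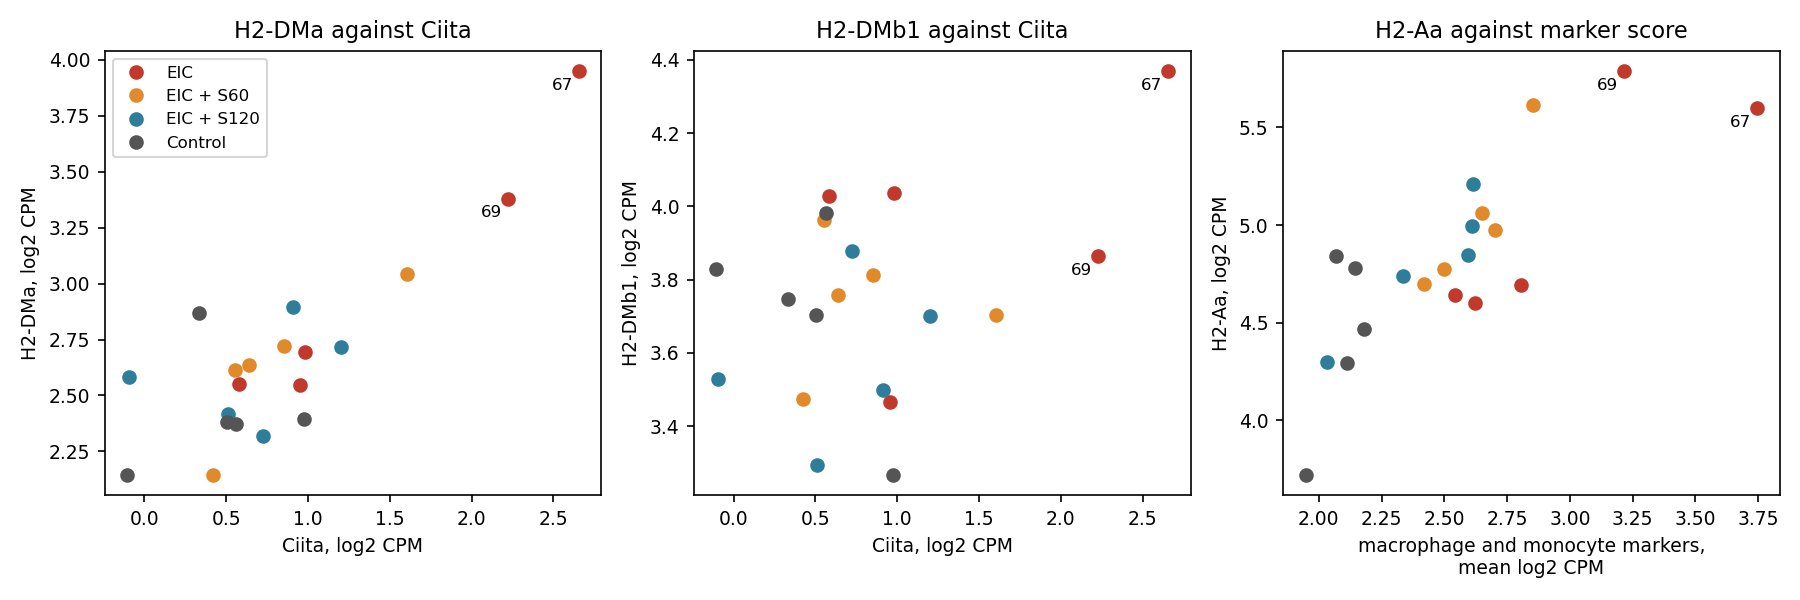
Log2 CPM of H2-DMa and H2-DMb1 (y axes) against Ciita, and of H2-Aa against the mean log2 CPM of macrophage and monocyte markers (x axes), 1 point per mouse, coloured by group. H2-DMa is higher in mice with more Ciita (r = 0.85) and H2-Aa in mice with a higher marker score (r = 0.81), with EIC 67 and EIC 69 at the upper ends, while H2-DMb1 shows little relation to Ciita (r = 0.39).

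The summed CPM of the 16 macrophage and monocyte markers was 212 to 368 in EIC mice, with EIC 67 the highest, 201 to 236 in EIC + S60, 202 to 229 in EIC + S120 and 168 to 195 in Control mice. In EIC vs. Control 6 of its 15 tested genes rose and 0 fell, against 2.97% of all genes called. Adgre1, the macrophage adhesion receptor F4/80, rose by an LFC of 1.73 ± 0.31, the complement component C1qa by 1.46 ± 0.25, lysozyme Lyz2 by 1.89 ± 0.37 and the Fc receptor Fcgr1 by 1.58 ± 0.41 (SE; edgeR adjusted p = 0.00586, 0.00437, 0.0165 and 0.0362). The part of these cells in the class II values was not tested. The 14 dendritic cell markers summed to 116 to 206 CPM in EIC mice and 126 to 219 CPM in Control mice. Most of these sums was 1 gene, Cd24a, at 102 to 180 CPM in EIC and 106 to 205 CPM in Control mice. They therefore say little about the other markers. Of 9 tested, only the integrin Itgax rose in EIC vs. Control (LFC 1.17 ± 0.27; edgeR adjusted p = 0.0342), and macrophages express it too. It also rose in EIC + S60 vs. Control (LFC 1.21 ± 0.27; adjusted p = 0.0425), while Batf3, a factor of cross-presenting dendritic cells, fell in EIC + S120 vs. Control (LFC -1.35 ± 0.31; adjusted p = 0.0317). Of the dendritic cell markers, Flt3, Xcr1 and Ccr7 were at or below 0.398, 0.569 and 0.171 CPM in EIC mice. In Control mice they were at or below 0.68, 0.34 and 0.136 CPM. Others of the list were higher. Zbtb46 was at 4.59 to 9.44 CPM in EIC and 5.72 to 8.31 CPM in Control mice. Clec9a was at 0.772 to 2.33 CPM in EIC and 1.19 to 1.8 CPM in Control mice.

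The 10 B cell markers summed to 9.82 to 15.3 CPM in EIC mice and 13.3 to 16.1 CPM in Control mice. In EIC vs. Control none of the 5 tested was called by edgeR, against 2.97% of all genes. At an unadjusted p under 0.05 there were 0, against 16.8% of all genes. Of 11 T and NK cell markers, Cd3e, Cd3g, Cd3d, Trac and Nkg7 were not analysed here, and the other 6 summed to 1.70 to 5.69 CPM in EIC mice and 1.49 to 1.90 CPM in Control mice. The B cell genes Pax5 and Fcrla and the immunoglobulin genes Igkc, Ighm and Igha were not analysed here either. Of the B, T and NK cell genes that were, none was at 0 in all mice of a group. For the EIC group this was fixed in advance, since every listed gene has a count in EIC 65.

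Of the genes that work beside the members, the DNA-binding partners of Ciita are given first. None of the 10 genes of the class II enhanceosome and its chromatin factors (Rfx5, Rfxap, Rfxank, Nfya, Nfyb, Nfyc, Creb1, Crebbp, Ep300 and Smarca4) was called by edgeR in any comparison. Of all genes, edgeR called 0% to 5.55% per comparison. In EIC vs. Control the LFCs of the 10 ran from -0.25 for Rfx5 to 0.20 for Rfxank, and their median was -0.06. Those 2 genes were at an unadjusted p under 0.05, against 16.8% of all genes. Against 2.97% of all genes called in EIC vs. Control, 3 of 12 tested genes of interferon-gamma signalling rose and 0 fell. Among them were Irf1, which acts on the inducible Ciita promoter (LFC 0.78 ± 0.20, SE; edgeR adjusted p = 0.0441), and Nlrc5, the counterpart of Ciita for MHC class I genes (1.80 ± 0.43; adjusted p = 0.0236). The receptor chains Ifngr1 and Ifngr2 had LFCs of 0.02 and -0.01. Ifng itself was not analysed here.

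Of 6 tested genes of proteases and loading, only 1 rose in EIC vs. Control, where 2.97% of all genes were called. This was Ctss, the lysosomal protease that trims Cd74 down to CLIP. It was at 6.18, 9.94, 23.1, 10.2 and 18.03 CPM in EIC mice 65 to 69, against 4.88, 6.32, 4.85, 7.41 and 5.65 CPM in Control mice 651 to 655. All EIC mice but EIC 65 were above every Control mouse (LFC 1.21 ± 0.27, SE; edgeR adjusted p = 0.0236). Ifi30, the lysosomal thiol reductase, had an LFC of 0.27 ± 0.08 (adjusted p = 0.0569). Of the other DM and DO chains, H2-DMb2 had an LFC of 0.37 ± 0.16 in EIC vs. Control (adjusted p = 0.252) and H2-Oa 0.51 ± 0.32 (adjusted p = 0.51), and H2-Ob was too low to be tested. Among 6 MHC class I genes, the peptide transporter Tap1 rose (1.01 ± 0.24; adjusted p = 0.0295) and the other 5 had LFCs of 0.21 to 0.52 that were not called. None of the 5 tested costimulation genes was called in EIC vs. Control by edgeR. At an unadjusted p under 0.05 there were 2, Cd86 (0.59 ± 0.23) and Cd274 (0.82 ± 0.27), against 16.8% of all genes. In the comparisons of sparsentan with EIC, edgeR called none of these genes at either dose. Of all genes it called only 0% with 60 mg/kg and 0.0572% with 120 mg/kg.

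**Figure D4:**
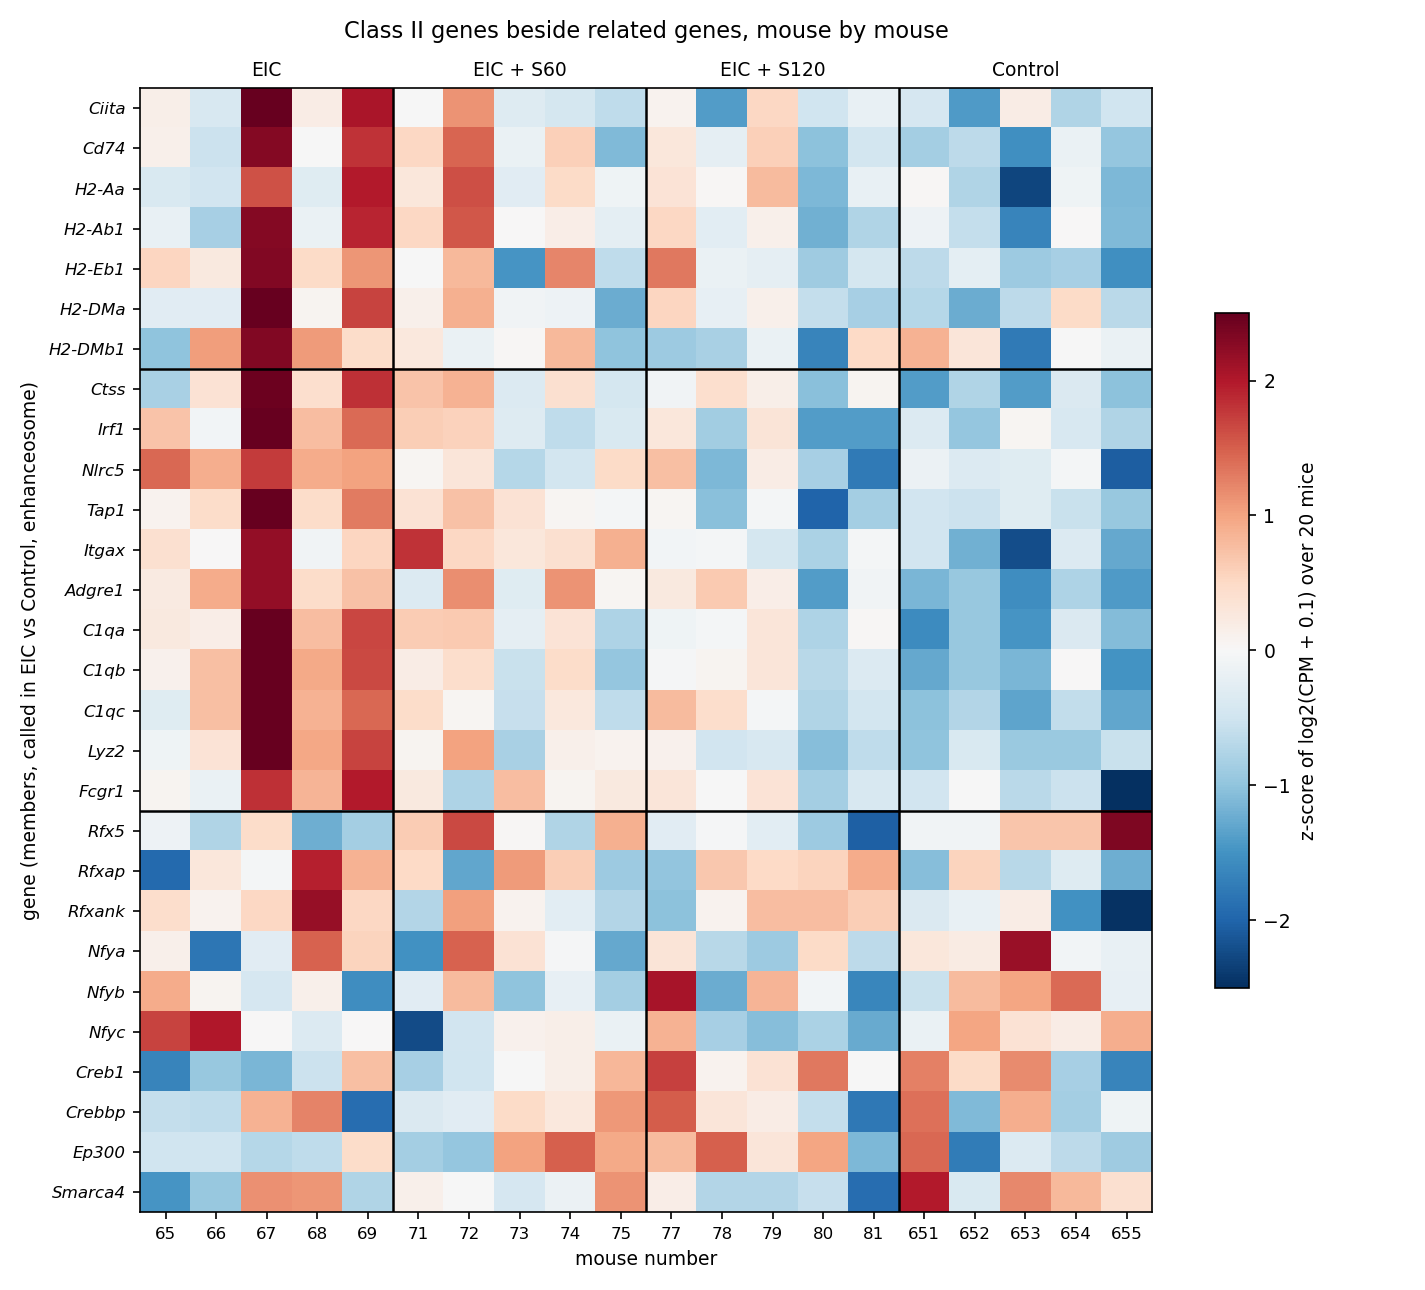
Z-score of log2(CPM + 0.1) over 20 mice (colour) for the 7 members (top rows), 11 of the listed genes called in EIC vs. Control (middle rows) and 10 genes of the class II enhanceosome (bottom rows), with mice in columns by group. The column of EIC 67 is high in the top and middle rows, that of EIC 69 is too, but less so for H2-DMb1, Nlrc5, Itgax and Adgre1, and the bottom rows show no such columns.

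The genes most like the class II chains were sought among 12804 other tested genes whose mean level was 1 CPM or more, by the Pearson r of group-centred log2 CPM over the 20 mice with the mean z-score of Cd74, H2-Aa, H2-Ab1 and H2-Eb1. The 10 most like it were Cybb (r = 0.90), Laptm5 (0.88), Mpeg1 (0.86), C1qa (0.85), Igtp (0.84), Gbp7, Irgm2, C1qb, Lcp1 and Ifi47 (0.83 to 0.82). Cybb is the phagocyte NADPH oxidase, Laptm5 a lysosomal protein of blood cells, Mpeg1 the perforin-like protein of macrophages and Lcp1 the leukocyte plastin. Igtp, Gbp7, Irgm2 and Ifi47 are interferon-inducible GTPases. In EIC vs. Control 8 of these 10 rose, from an LFC of 0.89 for Cybb to 1.49 for C1qb, and Gbp7 (0.60, edgeR adjusted p = 0.147) and Lcp1 (0.51, adjusted p = 0.259) were not called. Of all genes tested, 2.97% were called there, and the 10 genes were picked in these same libraries. By the same measure H2-DMa reached 0.84, Ciita 0.68 and H2-DMb1 0.48.

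The 5 genes most like Ciita were Tgtp1 (r = 0.84), Irf1 (0.81), Ifi47 (0.81), Gbp6 (0.81) and Isg15 (0.81), all interferon-inducible. Tgtp1 has a near-identical copy, Tgtp2, so its counts are uncertain. It averaged 6.69 CPM in EIC, 2.35 in EIC + S60, 2.84 in EIC + S120 and 1.94 in Control mice, and Irf1 20.2, 13.6, 11.6 and 11.7 CPM. The members were left out of this ranking. The highest of them was H2-DMa at 0.79, below these 5 genes. All r values here share the libraries and carry no test.

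The balance between members was compared in 6 ratios over 3 comparisons, 18 exact permutation tests in all. The ratio of Ciita to H2-Aa averaged 0.051 in EIC + S60 mice and 0.08 in EIC mice (exact permutation p = 0.0159, adjusted p = 0.25), and 0.052 in EIC + S120 mice against the same EIC mice (exact p = 0.0317, adjusted p = 0.25). Neither passed after adjustment. The alpha-to-beta ratio H2-Aa to H2-Ab1 was 1.22 in EIC mice and 1.26 in Control mice (exact p = 0.77, adjusted p = 0.882), and 1.28 in EIC + S60 and 1.44 in EIC + S120 mice. No ratio passed the adjustment in any of the 3 comparisons, the lowest adjusted p being 0.25.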

How the data were processed

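Kidney poly(A) RNA of 20 mice was sequenced, and the files hold raw read counts by gene as the authors deposited them. Per the labels and methods, reads were trimmed (Trimmomatic 0.36), mapped with STAR 2.5.2b on GRCm38 and counted by featureCounts (Subread 1.5.2). For the annotation used in that counting and its strand setting, the sources used here give nothing. Every one of the 15780 listed genes has a count in EIC 65, and the other 19 libraries have 234 to 654 genes at 0, so that a gene with no read in EIC 65 was not analysed here. Class II chains are polymorphic between mouse strains, and reads of alleles that differ from the reference could align less well. The class II alleles of the single mice were not examined, so an effect on the groups was not tested.

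Of the listed genes, 13990 reached 10 counts in 5 or more libraries and were kept. All 20 libraries were scaled by TMM and fitted together in edgeR 4.0.16 (R 4.3.3) with 1 coefficient per group. Its robust quasi-likelihood test was adjusted by Benjamini-Hochberg across the genes kept. SEs came from limma 3.58.1 (log2 CPM, prior count 2). Exact permutation tests compared log2 CPM or ratios of single members. The depth limits precision most for Ciita and H2-Eb1, with as few as 14 and 11 counts in a library. P-values weigh differences and relations against the spread between single mice. They do not cover a difference of cage or processing that coincides with the groups. The fit was tested on simulated data.

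The members, lists and tests were chosen with earlier results of these data known. Named genes are the 7 members, genes of the lists, the 10 genes most like the class II chains and the 5 most like Ciita. Alternatives were RLE scaling, DESeq2 1.42.0, limma-voom, other filters, pairwise fits, and leaving out single libraries or both deeper Control libraries. Results for some listed genes are not reported here.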

Additional observations from a re-analysis of the deposited data

Results flagged for a closer look

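In each of the 28 sets of 5 values (7 members in 4 groups), the extreme mouse was compared with the others by Dixon's ratio of its gap to the whole range, with a critical value of 0.71. Chance alone flags about 1 in 20 such sets, and 2 were past the value. Ciita was at 2.94 CPM in EIC + S60 72, apart from the other EIC + S60 mice at 1.24 to 1.70 CPM (gap over range 0.727). H2-Eb1 was at 2.25 CPM in EIC + S120 77, apart from the other EIC + S120 mice at 1.07 to 1.37 CPM (gap over range 0.748). The high values of EIC 67 and EIC 69 were not past it in any member. The gap is measured to the nearest mouse, so 2 high mice in a set shorten the gap of each other. The check therefore could not judge them as a pair.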

How the results depend on the processing

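In EIC vs. Control, edgeR called 0 members, DESeq2 called 3 and the fits without single libraries called 0 to 2, the 2 being Ciita and Cd74 without EIC 66. Over all genes edgeR called 416, DESeq2 689 and the fit without EIC 66 465. In the other 5 comparisons every alternative run called 0. Of 1134 LFCs of members under the alternatives, 17 changed sign, none of them called. These were LFCs near 0. Without single libraries, EIC + S60 vs. EIC ranged from -0.279 to 0.113 for H2-Aa and from -0.407 to 0.04 for H2-Ab1. EIC + S60 vs. Control ranged from -0.084 to 0.093 for H2-DMb1, and was -0.039 by limma-voom. EIC + S120 vs. Control was 0.015 for H2-DMb1 without both deeper Control libraries. EIC + S120 vs. EIC + S60 ranged from -0.331 to 0.102 for Ciita, from -0.259 to 0.126 for H2-Eb1 and from -0.164 to 0.066 for H2-DMa, and was 0.002 for H2-Eb1 and 0.007 for H2-DMa by limma-voom. Without EIC 67 the log2 ratio of H2-Aa to H2-Ab1 differed by 0.052 in EIC vs. Control and by -0.025 in EIC + S60 vs. EIC, and that of H2-DMa to H2-DMb1 by 0.062 in EIC + S120 vs. EIC. The cause of these turns was not tested. With a prior count of 0.5 no relation changed direction, and that of H2-Aa to the dendritic cell markers was 0.54 over all mice.

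No paired analysis was possible because the mouse numbers differ between all groups.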
